A study of Rattus norvegicus with 4 samples.

Results

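The genes described here are 7 claudins (Cldn1, Cldn2, Cldn3, Cldn5, Cldn11, Cldn12 and Cldn19), occludin (Ocln) and the scaffold gene Tjp1, in the rat Schwann cell line S16. They were chosen by symbol as components of the autotypic junctions of Schwann cells and their relatives, and all 9 were found among the 30708 genes listed. Steady-state mRNA was measured by RNA-Seq in 4 libraries of unmodified, immortalized S16 cells. The submitters' source label calls these cells myelinating Schwann cells. Cells of passage 9, the parental population of the study's rSOX-4 mutant lines, gave 2 libraries, and cells of passage 39 gave the other 2. Each passage was 1 population grown to a confluent flask, and its libraries were technical replicates. The difference between passages therefore had no biological replicate, and no test was made of it. Values are RPKM, read counts scaled by gene length and by library total, and an interval given with a level is a 95% exact binomial (Clopper-Pearson) interval of the recovered reads that covers counting error only.

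Tight junctions seal neighboring membranes. Claudins are tetraspan proteins whose extracellular loops meet across the gap and set which ions pass, and occludin is a further tetraspan protein of the strands. On the cytoplasmic side, zonula occludens proteins such as Tjp1 (ZO-1) tie the strands to actin. A myelinating Schwann cell forms such junctions between wraps of its own membrane, at the mesaxons, paranodal loops and Schmidt-Lanterman incisures, where Cldn19 is the best-known claudin.

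The 9 genes fell into 3 classes. Tjp1, Cldn12 and Cldn19 were detected, meaning a mean of at least 1 RPKM in both passages. That is 33.3% of the 9 genes, beside 35.7% of all listed genes. Cldn11, Cldn2, Ocln and Cldn3 had between 1 and 22 reads over all 4 libraries together. Cldn1 and Cldn5 were listed at 0 throughout, as were 33.8% of all listed genes. A listed 0 may also be a failed assignment of reads, since 4 of 98 ribosomal protein genes were listed at 0 as well.

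Promoter sequence is shown for the low or unread claudins so that their start sites can be seen beside their levels. Each is the 250 bases before the RefSeq start site in build GRCr8, read 5′ to 3′ on the gene's strand, with CG dinucleotides in capitals. The windows lie at chr11:87926126-87926375 on the plus strand for Cldn1, and on the minus strand at chr12:27346548-27346797 for Cldn3, chr11:95718599-95718848 for Cldn5 and chr2:114149540-114149789 for Cldn11.
Cldn1: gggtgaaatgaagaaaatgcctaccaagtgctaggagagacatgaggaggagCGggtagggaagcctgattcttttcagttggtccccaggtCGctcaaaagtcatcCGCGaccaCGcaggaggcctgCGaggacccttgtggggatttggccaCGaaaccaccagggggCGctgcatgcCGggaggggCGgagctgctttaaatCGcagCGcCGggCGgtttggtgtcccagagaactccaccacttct
Cldn3: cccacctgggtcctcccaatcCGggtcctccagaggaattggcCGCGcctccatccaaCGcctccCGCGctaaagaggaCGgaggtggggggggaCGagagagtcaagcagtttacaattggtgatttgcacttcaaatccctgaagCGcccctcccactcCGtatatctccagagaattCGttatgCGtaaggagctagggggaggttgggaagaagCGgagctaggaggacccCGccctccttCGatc
Cldn5: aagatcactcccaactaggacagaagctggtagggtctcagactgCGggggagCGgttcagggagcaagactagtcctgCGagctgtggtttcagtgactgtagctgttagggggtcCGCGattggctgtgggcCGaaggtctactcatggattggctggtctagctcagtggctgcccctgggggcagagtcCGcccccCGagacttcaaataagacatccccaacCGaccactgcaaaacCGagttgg
Cldn11: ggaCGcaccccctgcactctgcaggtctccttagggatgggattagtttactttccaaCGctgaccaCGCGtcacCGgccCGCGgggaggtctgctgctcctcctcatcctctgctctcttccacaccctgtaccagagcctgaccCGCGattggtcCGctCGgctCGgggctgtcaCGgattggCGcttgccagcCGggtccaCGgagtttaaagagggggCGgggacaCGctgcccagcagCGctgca
These windows held 14, 15, 10 and 19 CG dinucleotides in the order printed. The median over 19339 windows that end at a gene's outermost start was 4. Among such windows it was 17 for 3266 genes detected in S16 cells and 4 for 4453 listed genes that were not detected. The Cldn11 window held more CG dinucleotides than 85.8% of all these windows, Cldn1 more than 78.8%, Cldn3 more than 80.2% and Cldn5 more than 71.8%. All 4 claudins were thus above the overall median in CG count, but only Cldn11 was above the median of detected genes. The mRNA of all 4 was at or near 0. This is a description of the windows and says nothing of methylation or factor binding, which were not measured. Cldn2 has no entry in the promoter table, and the start sites given for Cldn12, Cldn19, Ocln and Tjp1 lie inside the gene, so no window is printed for them.

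The libraries grouped by technical number, not by passage, and every result below carries that. Over the 10964 detected genes, the SD of the log2(RPKM + 1) difference was 0.338 and 0.333 between libraries of 1 passage, but 0.0789 and 0.0771 between libraries of the same number from different passages. For Tjp1, Cldn12 and Cldn19 the mean size of the difference was 0.250 and 0.229 within a passage and 0.0410 and 0.0443 within a number. On average the 3 genes were thus closer between passages 9 and 39 than between libraries of 1 population, although Tjp1 differed by 0.053 between the second libraries and by −0.030 within passage 39. The labels do not say what the numbers stand for. Whether library labels are crossed, or a batch is shared by libraries of 1 number, was not tested. Passage and number are used here as labelled, and either would change what the differences between them stand for. The median gene was 0.10 higher in the second libraries as deposited, 0.027 higher after median-ratio scaling and 0.025 lower (−0.025) after scaling to a common sum, so differences by number are read against that shift.

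Tjp1 was the most abundant of the 9 genes. Its RPKM was 33.1 and 31.5 in the first and second library of passage 9, and 33.5 and 32.8 in those of passage 39. These rest on 10629, 8593, 8898 and 10447 reads. All 4 libraries were close together, and the second was the lower of each pair. The mean was 32.7 ± 0.565 RPKM (SD, n = 2 populations), which placed Tjp1 at rank 2200 of the 30708 genes. On the log2(RPKM + 1) scale passage 39 was 0.034 above passage 9, and the second libraries were 0.048 below the first (−0.048). The intervals of the libraries of passage 9, 32.5 to 33.7 and 30.9 to 32.2 RPKM, did not overlap, whereas those of passage 39, 32.8 to 34.2 and 32.1 to 33.4, did. As deposited, the difference by number was larger in size than that of 11.5% of detected genes. It was −0.14 after median-ratio scaling and −0.19 after scaling to a common sum. Leaving out 1 library moved the passage difference to 0.0011 (second passage 9 library dropped), 0.068 (first passage 9 library dropped) or 0.019 (first passage 39 library dropped). The difference by number then ran from −0.075 (without the second library of passage 39) to −0.022 (without the second of passage 9).

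Cldn12 was the most abundant claudin numbered as such. It is a broadly expressed claudin that lacks the carboxy-terminal motif by which most claudins bind zonula occludens scaffolds. Its RPKM was 3.77 and 4.49 in passage 9, and 3.78 and 4.77 in passage 39, from 591, 596, 490 and 742 reads. The second library was the higher in each passage, and the first libraries of the 2 passages were nearly the same. The mean was 4.20 ± 0.103 RPKM (SD, n = 2 populations). The passage difference was 0.040 on the log2(RPKM + 1) scale, made of 0.0021 between first and 0.073 between second libraries, and it changed sign, to −0.10, when the second passage 39 library was dropped and, to −0.057, when the first passage 9 library was. Without the other libraries it was 0.17 (first of passage 39) and 0.14 (second of passage 9). The difference by number was 0.24, with 0.20 in passage 9 and 0.27 in passage 39, and the intervals of paired libraries did not overlap in either passage. As deposited, this difference by number was larger in size than that of 56.4% of detected genes. It was smaller after scaling, at 0.16 by median ratio and 0.14 by common sum. Pooled over passages, the second libraries had 1.23 times the first (95% interval 1.13 to 1.33, counting error only).

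Cldn19 moved the other way. Its RPKM was 2.75 and 1.68 in passage 9, and 2.49 and 1.67 in passage 39, from 501, 260, 375 and 302 reads. Both first libraries were above both second libraries, and each passage held 1 of each kind. The mean was 2.15 ± 0.0975 RPKM (SD, n = 2 populations), and the first libraries averaged 1.56-fold the second. On the log2(RPKM + 1) scale the number difference was −0.44, larger in size than that of 85.1% of detected genes, while the passage difference was −0.063. The number difference was −0.50 after median-ratio scaling and −0.68 after scaling to a common sum. The pooled ratio of second to first libraries was 0.637 (95% interval 0.572 to 0.709, counting error only). Within numbers, the passage difference was −0.10 between first libraries and −0.0071 between second libraries. It changed sign, to 0.20, without the first library of passage 9 and, to 0.12, when the second passage 39 library was dropped. Dropping the second passage 9 library gave −0.28, and dropping the first passage 39 library gave −0.27.

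**Figure D1:**
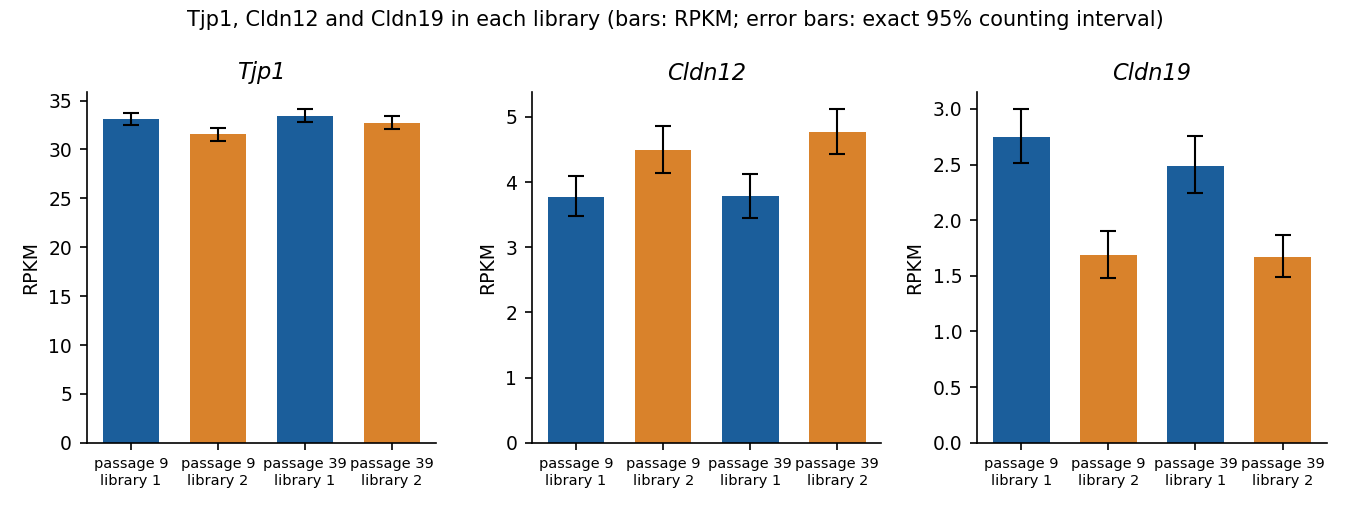
RPKM (linear axes starting at 0) of Tjp1, Cldn12 and Cldn19 in each of the 4 libraries, drawn as bars with error bars for the 95% exact binomial interval. Cldn12 was higher and Cldn19 lower in the second library of both passages, and Tjp1 stayed between 31.5 and 33.5 RPKM.

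Because the 2 claudins moved in opposite directions by number, their ratio changed more than either level. Cldn12 was 1.37 and 2.67 times Cldn19 in the libraries of passage 9 and 1.52 and 2.86 times in those of passage 39. The ratio was above 1 in every library, and the order Tjp1, Cldn12, Cldn19 held in all 4, with no overlap of neighboring intervals. Tjp1 was 6.87 to 8.86 times Cldn12 and 12.0 to 19.6 times Cldn19. These ratios compare genes per kilobase and depend on the gene lengths that were used.

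Cldn11, the claudin of oligodendrocyte and Sertoli cell tight junctions, was near the limit of counting. It had 13 reads and 1 read in the libraries of passage 9, and 6 and 2 reads in those of passage 39. The levels were 0.170, 0.0154, 0.0948 and 0.0263 RPKM, higher in the first library of each pair. The mean was 0.0766 ± 0.0227 RPKM (SD, n = 2 populations), and it was 0.0380 without the first library of passage 9 and 0.115 without the second. The intervals did not overlap within passage 9, at 0.0905 to 0.291 and 0.00039 to 0.0859 RPKM, but did within passage 39, at 0.0348 to 0.206 and 0.00319 to 0.0952 RPKM. The pooled second to first ratio was 0.157 with an interval of 0.0297 to 0.533, so its size is poorly known.

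The remaining genes had at most a few reads, counted with the smallest gene length that gave whole reads. A longer length would raise these counts by a whole multiple and leave RPKM as it is. Cldn2, a channel-forming claudin of leaky epithelia, had 2 and 1 reads in passage 9 and 1 and 0 in passage 39. Ocln had 1, 1, 1 and 2 reads. Cldn3, a sealing claudin of epithelia, had a single read, in the second library of passage 39. No order among these 3 can be read from such counts, and their presence or absence in the cells was not detectable at this depth. Cldn1, which is found in epithelia, perineurium and Schwann cell mesaxons, and Cldn5, the main endothelial claudin, had no reads. A count of 0 allows up to 3 reads, or 0.0725 to 0.0876 RPKM for a gene of 1 kilobase, in these libraries.

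**Figure D2:**
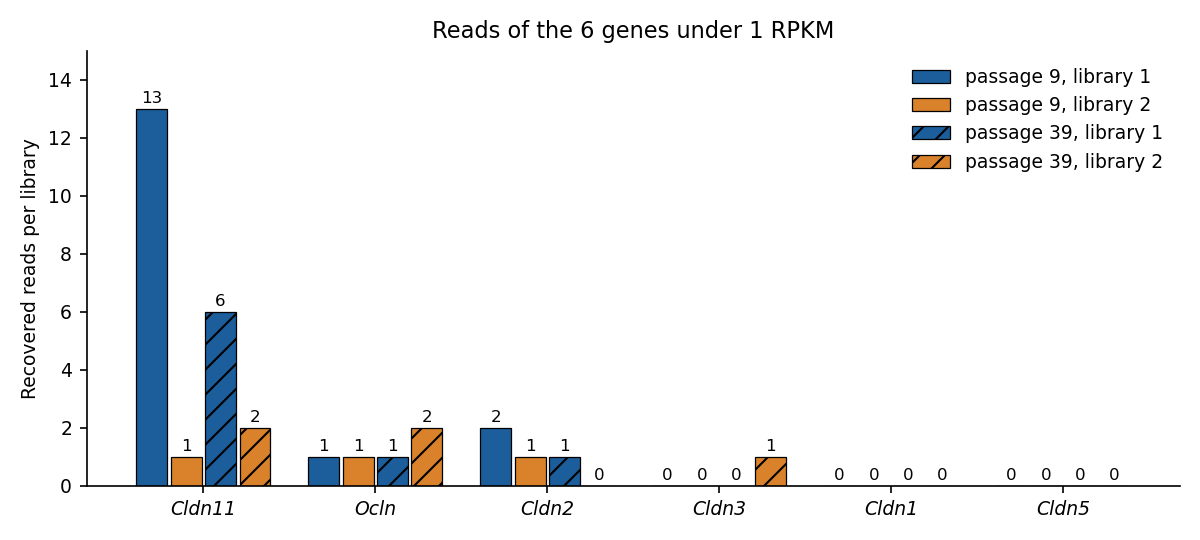
Recovered reads per library for the 6 genes below 1 RPKM, with each bar 1 of the 4 libraries and its number of reads above it. Cldn11 reached 13 reads in the first library of passage 9, and the other genes stayed at 0 to 2 reads.

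None of the 9 genes differed by 2-fold or more in log2(RPKM + 1) between passages, where 0.00326% of all listed genes did. None did so between second and first libraries either, where 0.433% of listed genes and 1.09% of detected genes did. With 1 RPKM added, a gene needs at least 1 RPKM in a group to reach 2-fold, so these counts bear on Tjp1, Cldn12 and Cldn19. By number, the first and second libraries did not overlap for any of the 3, 1 being higher and 2 lower in the second, beside 87.8% of detected genes (57.3% higher and 30.5% lower). By passage, all 3 overlapped, beside 6.17% of detected genes that did not (3.08% higher and 3.08% lower in passage 39). A share of non-overlap by number near that of all genes is no property of these genes.

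Beyond the 9 genes, Cldn14 was the other detected claudin. Cldn14, best known from the cochlea, was at 3.66, 3.21, 3.35 and 3.47 RPKM in the order of libraries used above. Of the 22 claudin genes that carry a number, 6 were listed at 0 in all libraries, beside 33.8% of all listed genes. Cldn12, Cldn14 and Cldn19 supplied 84.5% to 88.8% of the summed claudin RPKM of 10.6 to 11.7. Cldn12 was 1.03 to 1.40 times Cldn14, and their counting intervals overlapped in the first libraries of both passages and not in the second. Cldnd1, a claudin-domain gene outside the numbered series, was at 32.1 RPKM on average and Cldn20 at 0.579. In all, 2 of the 17 other listed genes of the claudin list, or 11.8%, were detected, beside 35.7% of all listed genes. These 2 had a median second minus first difference of 0.066, beside 0.10 over all detected genes. Their median passage difference was −0.020.

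Among 15 other membrane proteins of tight junctions 2, or 13.3%, were detected, beside 35.7% of all listed genes. Jam3, an adhesion molecule of Schwann cell junctions, was at 50.1, 44.1, 51.4 and 43.7 RPKM. Ildr2, an angulin of tricellular contacts, was at 16.3, 10.7, 16.3 and 11.2 RPKM. Both were lower in the second libraries, by 0.21 and 0.54 on the log2(RPKM + 1) scale (−0.21 and −0.54). Among all detected genes 30.5% were lower and 57.3% higher in both second libraries. Lsr, another angulin, stayed just below the limit of detection with a mean of 0.838 RPKM. The occludin relative Marveld2, named after its values were seen, was listed at 0.

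Of 25 other cytoplasmic tight junction genes 19, or 76%, were detected, beside 35.7% of all listed genes, and none was at 0 in all libraries. Ybx3, a Y-box factor that binds Tjp1, was at 125, 154, 126 and 152 RPKM. Amotl2 and Amot, angiomotin family scaffolds, averaged 57.5 and 38.8 RPKM. Of the 19, 9 were higher and 8 lower in both second libraries than in both first, and 2 overlapped, beside 57.3% higher and 30.5% lower among all detected genes. The direction by number of Pard3 and Rab13, named after their values were seen, flips with the scaling. The median difference by number was 0.014, beside 0.10 over all detected genes, and by passage 0.030. Tjp3, a relative of Tjp1 named after its values were seen, averaged 0.220 RPKM.

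**Figure D3:**
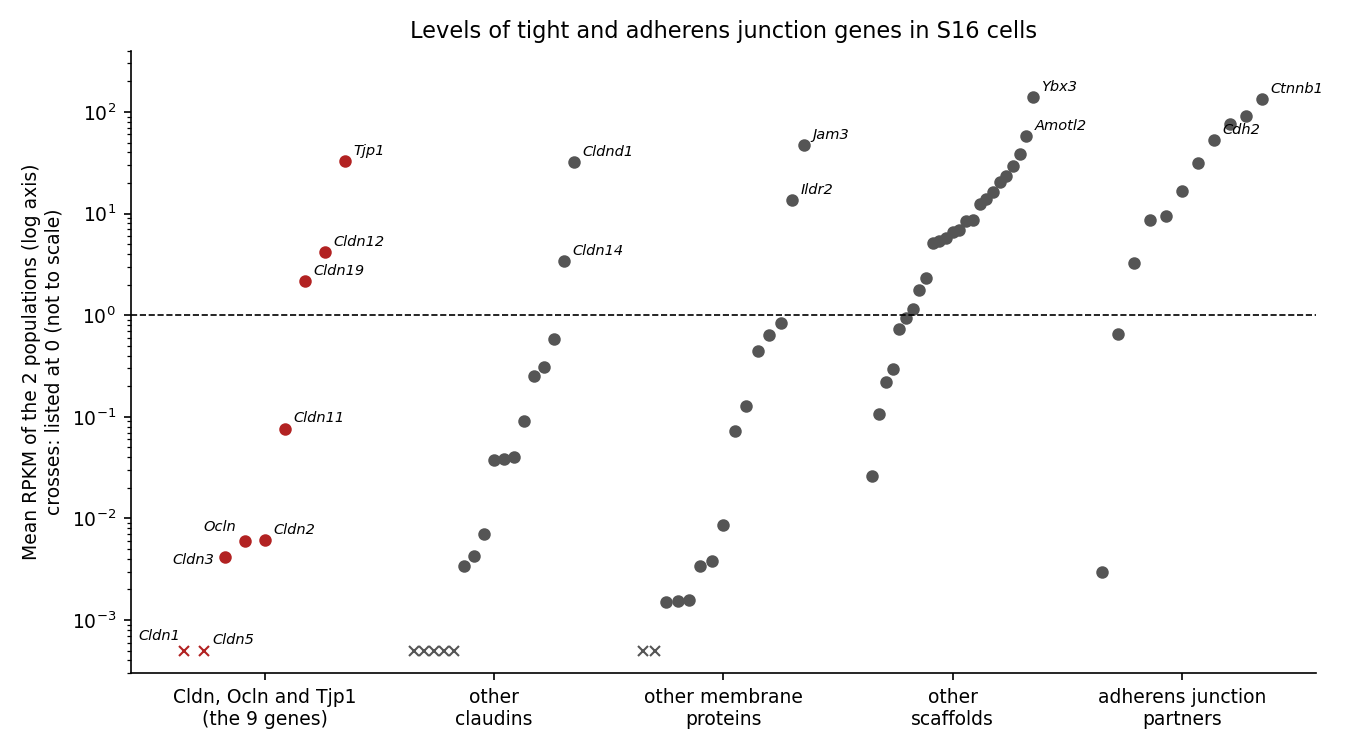
Mean RPKM of each junction gene (log axis), grouped by list, with the 9 genes in the first group a dashed line at 1 RPKM and crosses, not to scale, for genes listed at 0. Most scaffolds and adherens junction genes lie above the line, and most claudins and other membrane proteins lie below it.

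Adherens junctions, which in Schwann cells lie beside the tight junctions of the mesaxon, were read from 11 genes. Of these 9, or 81.8%, were detected, beside 35.7% of all listed genes. The catenins Ctnnb1, Ctnna1 and Ctnnd1, which link cadherins to actin or regulate them, averaged 133.3, 92.0 and 75.6 RPKM. Of the 9, 7 were lower and 2 higher in both second libraries, with a median of −0.13. Among all detected genes 30.5% were lower and 57.3% higher, with a median of 0.10. By passage the median was −0.018.

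**Figure D4:**
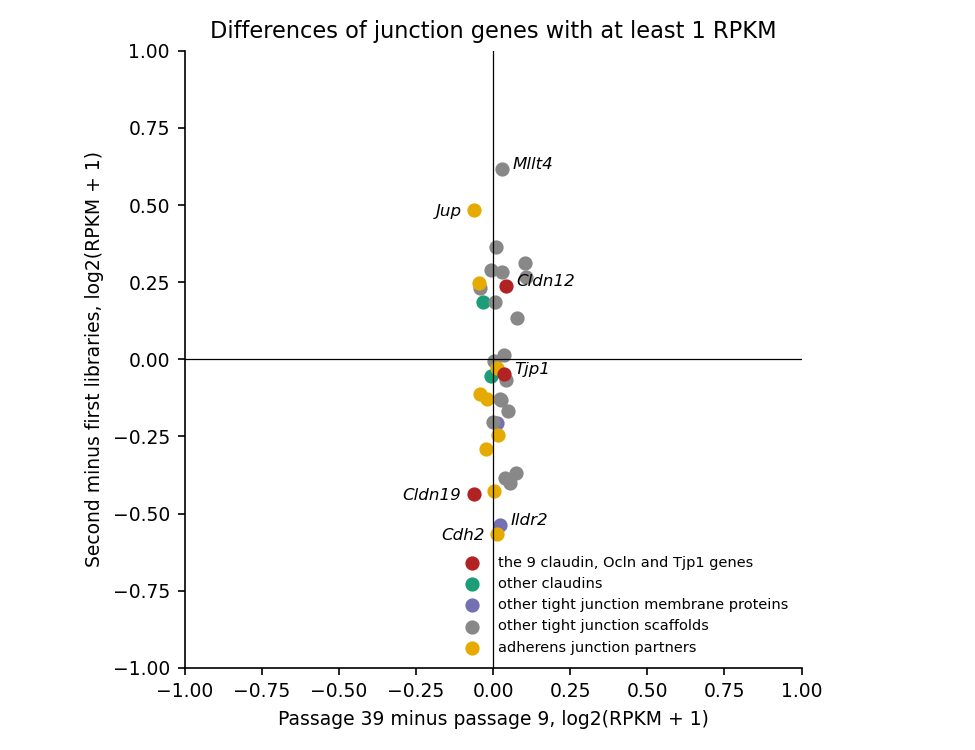
Difference between passages (x axis) and between second and first libraries (y axis), both in log2(RPKM + 1), for each junction gene with at least 1 RPKM. Every point lies close to 0 on the passage axis, while the number axis runs from −0.57 for Cdh2 to 0.62 for Mllt4, both named after their values were seen.

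The cell type label was checked against markers. Beside 35.7% of all listed genes, all 9 Schwann cell markers were detected, among them Pmp22 and Sox10 at 1255 and 176 RPKM. By number, 6 of them were lower and 3 higher in the second libraries, of which Pmp22 and Sox10 flip with the scaling, and S100b was among those past 2-fold (−1.39). Of all detected genes 30.5% were lower, 57.3% higher and 1.09% past 2-fold. None of 7 endothelial markers was detected, with summed levels of 0.724 to 0.860 RPKM, Cdh5 and Kdr at 0, and Vwf, Tek and Tie1 highest at up to 0.382 RPKM on average. Of the perineurial and epithelial markers, 2 of 8 were detected, Slc2a1 at 13.3 and Krt8 at 2.11 RPKM, with Epcam at 0.699 and the list's sum at 16.6 to 17.0 RPKM. Of the other lists, 1 of 7 oligodendrocyte markers (Mog, 7.98 RPKM, followed by Olig2 and Gpr37), 3 of 6 fibroblast markers (Col1a1, Col3a1 and Pdgfra at 3588, 65.9 and 5.35 RPKM) and 1 of 5 macrophage markers (Cd68, 1.40 RPKM, followed by Csf1r and Aif1) were detected. The fibroblast markers Col1a2, Lum and Dcn were not detected, at 0.339, 0.0534 and 0.0033 RPKM on average. Cdh5, Kdr, Col1a2, Lum and Dcn were named after their values were seen. The part of any of these in the levels of the 9 genes was not tested.

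Genes closest to each detected gene in level were found by the root mean square difference of log2(RPKM + 1) over the 4 libraries. For Cldn12 these were Brat1, Tmem39b and Lrrc28, at 0.0224, 0.0242 and 0.0312. For Cldn19 they were Prickle1, LOC679894 and Rps6ka2, at 0.0424, 0.0470 and 0.0546. For Tjp1 they were Adam9, Kpna4 and Xpo7, at 0.0229, 0.0247 and 0.0313. The points share their libraries and scaling, and the measure says only that the levels were alike.

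In the RefSeq annotation of GRCr8, Ocln overlaps 1 pseudogene and Tjp1 overlaps 3 lncRNA or tRNA loci, while the other 7 genes overlap none. None of the overlapping loci is listed in the deposited values, and reads from a gene and an overlapping locus could not be told apart here.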

How the data were processed

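The authors deposited RPKM values per RefSeq gene for each of the 4 libraries. According to the labels and the study's methods, poly-A RNA libraries made with the TruSeq kit were checked with FastQC, aligned to rn5 with STAR and counted with HTSeq. Versions are not given in the sources used here. The spacing of the RPKM values gave back each library's total, 34246093 to 41382234 reads, and whole reads for all 20333 genes above 0, within 1e-09 reads or 1e-12 of the count. Each total is above the approximate number of reads per cell line in the study's methods, and the reason for this was not examined. The smallest length that gave whole reads in all libraries was used. On simulated data this returned the drawn reads for most genes and fewer reads for the rest. The simulation took the recovered lengths as true, so it cannot show how often the real counts are too low. Of the total, 79.4% to 81.5% fell on listed genes. Recovered counts rest on the recovered gene lengths, which equalled the GRCr8 gene span for 192 of 14436 genes. That span runs from gene start to gene end in another build, so it need not match and is no check of the lengths.

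Libraries were averaged per passage or per number. Differences were taken in log2(RPKM + 1). Because the libraries of a passage were technical replicates of 1 population, no test and no count model was used, and an SD is over the 2 passage means. A gene was called detected at a mean of 1 RPKM in both passages. Intervals are exact binomial (Clopper-Pearson) and, for ratios, conditional binomial, at 95%, and cover counting error only. The floor for 0 was 3 reads. Genes named were all 9, the 3 most abundant of each list, list genes that differed 2-fold, and the 3 genes most like each detected one. Some genes that this rule names are not reported here. Further genes are said to be chosen after their values were seen. Cldn34a of the claudin list was not listed. The 9 genes and the lists were chosen with earlier results of these data known. Promoters came from RefSeq (GRCr8), with 8 of the 9 genes matched and 4 at the gene's outermost start. Scripts ran under scipy 1.17.1, pandas 2.3.3 and numpy 2.4.6 with Python 3.11.15. Scaling, pseudocount, minimum level, left-out libraries and a replicate block were tried as alternatives.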

Additional observations from a re-analysis of the deposited data

How the results depend on the processing

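Of the 9 genes, 3 were detected under both other scalings, a minimum of 0.1 RPKM and each left-out library (3 to 3), but 1 (Tjp1) with a minimum of 5 RPKM. The counts of 2-fold differences between passages and between second and first libraries were 0 under every alternative, including each left-out library (0 to 0), the added first-only and second-only comparisons, chosen after seeing the data, and the replicate block of libraries with the same number. The replicate numbers mark technical libraries, not animals or cultures, so the block gives a count and no test. Scaling to a common sum of 1000000 changes the unit and so raises every level, and a fixed minimum or pseudocount is then less strict. Median-ratio scaling moved none of the levels of the 7 genes above 0 beyond 1 SD. The directions by number of Tjp1, Cldn12 and Cldn19 held under all scalings, with Cldn12 between 0.14 and 0.24, Cldn19 between −0.44 and −0.68 and Tjp1 between −0.048 and −0.19. Leaving out 1 library in turn gave passage differences from −0.28 to 0.20 for Cldn19 and from −0.10 to 0.17 for Cldn12, so that both changed sign. For Cldn19 the value was 0.20 without the first library of passage 9 and −0.28 without the second, and for Cldn12 it was 0.17 without the first library of passage 39 and −0.10 without the second. Depth limits Cldn11, Cldn2, Ocln and Cldn3, whose counts were 22 reads or fewer over all libraries.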

Other observations

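Several junction genes outside the 9, chosen after their values were seen, were lower in both second libraries. Of all detected genes, 30.5% were lower and 57.3% higher in both second libraries. Cdh1, Jam2, Cldn20, Cgnl1 and Cldn23 were below the limit of 1 RPKM for detection, so they lie outside these shares. Cdh1 (E-cadherin, the cadherin of Schwann cell autotypic adherens junctions) was at 1.15 and 0.175 RPKM in passage 9 and 1.19 and 0.105 RPKM in passage 39, from 209, 27, 179 and 19 reads. Its pooled second to first ratio was 0.118 (95% interval 0.0848 to 0.160, counting error only). The other main cadherin, Cdh2 (N-cadherin), was at 62.6, 41.7, 62.9 and 42.4 RPKM, so it was lower in the second libraries as well.

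Jam2, an adhesion molecule of the Jam3 family, was at 0.714, 0.199, 0.715 and 0.158 RPKM, with a pooled ratio of 0.247 (0.181 to 0.332). Cldn20 was at 0.800, 0.322, 0.917 and 0.275 RPKM, with a ratio of 0.348 (0.250 to 0.478). Cingulin-like Cgnl1 had 27 reads in the first libraries and 1 in the second. Mllt4 (afadin, an actin-binding junction scaffold) was higher in the second libraries, at 5.02, 8.10, 5.04 and 8.41 RPKM. Cldn23 and Jup, also chosen after their values were seen, were higher there too. Cldn23 had 4 reads in the first libraries and 20 in the second, and the pooled ratio of Jup was 1.45. For Cdh1, Cdh2, Jam2, Cldn20 and Mllt4, the passages of the same number were closer than the libraries of 1 passage. Of all detected genes, 87.8% did not overlap by number and 6.17% did not by passage. Such closeness is thus no property of these genes. What differs between libraries by number is not given in the labels, and these values are reported without explanation.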
